A study of Mus musculus with 9 samples.

Results

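The genes described here are Fabp4, a fatty acid binding protein, and 6 genes that act around it in the uptake, storage and burning of fatty acids: Fabp5, Cd36, Pparg, Lpl, Plin2 and Cpt1a. Fabp4 was taken for its higher level in both dnMPL fractions, so its differences from control are given as a description without a test. The others were taken for their function. The members are all probe sets whose platform annotation names exactly 1 of these genes, which gave 16 of the 45101 probe sets and 7 of 18193 genes. The genes had 4 (Fabp4), 3 (Cd36), 3 (Cpt1a), 2 (Fabp5), 2 (Lpl), 1 (Pparg) and 1 (Plin2) probe sets.

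RNA was measured on 9 mouse arrays of Lin-Sca1+cKit+ (LSK) cells, the marrow fraction that holds blood stem cells and early progenitors. All mice were C57Bl/6, had been irradiated with 10 Gy before they received donor marrow cells, and gave up their LSK cells 8 weeks later. Control arrays (n = 3) held LSK cells of mice transplanted with wild type cells. The dnMPL arrays held cells of mice that had received donor cells infected with a retrovirus carrying dnMPL, sorted into GFP negative cells (n = 3) and GFP positive cells (n = 3), GFP being the mark of the vector. The lineage-depleted donor marrow was described as cultured with SCF, Thpo, FGF-1 and IGF2 before infection. Whether the control cells went through the same culture and infection is not given in the sources used here. Each array pooled the marrow of 2 to 5 mice, whose ages are not given in the sources used here, and nothing says whether a GFP negative and a GFP positive array that share a number also share mice. Levels are log2 RMA values, so that a difference of 1 is a doubling, and levels of different probe sets are not set against each other. Values are given in the order of arrays 1 to 3.

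Medians of the arrays ranged from 4.52 to 4.64. On control 3 and GFP positive 2, limma gave the lowest array weights (0.365 and 0.369, against 0.809 to 2.38 on the other arrays), and the gaps between the 3′ and 5′ Gapdh control probe sets were widest (3.87 and 3.22, against 2.47 to 2.89), a gap that widens when transcripts are incomplete. The gate marker Kit stood at 8.08 to 8.73 on controls, 7.92 to 8.22 on GFP negative arrays and 8.17, 6.38 and 8.17 on GFP positive arrays. Ly6a was not analysed here. No gene passed limma at an adjusted p under 0.05 in any of the 3 comparisons over 12398 tested genes, while 805, 691 and 316 genes had an unadjusted p under 0.05 (GFP positive against control, GFP negative against control, and GFP positive against GFP negative). Groups did not overlap in 8.61%, 11.4% and 6.4% of tested genes.

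Fatty acids do not dissolve well in the cytosol and travel there bound to small carrier proteins, of which FABP4 is the main one of fat cells and is also made by capillary endothelium and macrophages. Lipoprotein lipase (Lpl) frees fatty acids from circulating triglyceride, CD36 takes them up, perilipin 2 (Plin2) coats the droplets in which they are stored, and carnitine palmitoyltransferase 1a (Cpt1a) admits them to mitochondria for oxidation. PPAR gamma (Pparg) is a nuclear receptor that binds fatty acids and switches on many of these genes, Fabp4 among them, together with a retinoid X receptor. In blood stem cells fatty acid oxidation and PPAR signalling have been linked to self-renewal.

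PPAR and retinoid X receptors bind direct repeats of the half-site AGGTCA with 1 base between the copies. The RefSeq promoter table (build GRCm38.p6) had entries for 4 of the 7 members (Cd36, Plin2, Cpt1a and 3 start sites of Pparg) and none for Fabp4, Fabp5 and Lpl. The 250 bases before the start are shown for Plin2 (chr4:86670060-86670309, minus strand) and Cpt1a (chr19:3323051-3323300, plus strand), because both genes are known PPAR targets whose levels are set beside that of Fabp4 here. Both are written 5′ to 3′ on the strand of the gene, with matches to AGGTCA on either strand in capitals.
Plin2: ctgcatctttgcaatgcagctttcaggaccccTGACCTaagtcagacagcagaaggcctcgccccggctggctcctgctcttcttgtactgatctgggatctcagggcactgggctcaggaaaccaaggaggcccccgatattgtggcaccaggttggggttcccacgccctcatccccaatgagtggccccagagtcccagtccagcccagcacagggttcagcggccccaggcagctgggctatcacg
Cpt1a: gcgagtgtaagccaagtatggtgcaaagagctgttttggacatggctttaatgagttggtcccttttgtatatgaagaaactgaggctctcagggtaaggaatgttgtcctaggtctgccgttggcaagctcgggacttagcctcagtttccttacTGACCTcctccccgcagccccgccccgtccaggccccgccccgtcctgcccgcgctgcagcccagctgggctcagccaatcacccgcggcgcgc
The single match starts 218 bases before the start in Plin2 and 94 bases before it in Cpt1a, on the opposite strand in both. The window of Cd36, also a listed PPAR target, is not printed. It has a match 228 bases before the start, on the opposite strand too. A half-site was found in 5 of the 6 member windows and in 14% of all 32851 windows of this length. The full repeat, AGGTCA repeated with any 1 base between the copies, was searched on both strands and was in 0 of the 6 windows and in 0.0335% of all windows. With so rare an exact match nothing is read from its absence, and inexact repeats or bases outside these windows were not searched. Receptor binding was not measured here.

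Fabp4 was near the low end of its range in control LSK cells and several-fold higher in both dnMPL fractions. Its brightest probe set, 1451263_a_at, stood at 4.57, 4.34 and 5.63 on controls, at 8.16, 7.91 and 6.98 on GFP negative arrays, and at 7.90, 8.59 and 7.12 on GFP positive arrays. Every dnMPL array was above every control, and both fractions covered nearly the same range. Group means were 4.85 ± 0.69 (control), 7.69 ± 0.62 (GFP negative) and 7.87 ± 0.73 (GFP positive; SD, n = 3 each), so the mean was higher than control by 2.84 ± 0.50 (SE from limma), or 7.17-fold, in GFP negative cells and by 3.02 ± 0.50, or 8.13-fold, in GFP positive cells. In a bulk sample, more cells that express a gene and more of its RNA per cell cannot be told apart. Of the tested genes, 21 had a larger positive difference in GFP positive cells and 15 in GFP negative cells. Both dnMPL fractions lay above every control in 198 of the 12398 tested genes (1.6%), the condition for which Fabp4 was taken. The 2 comparisons with control share the control arrays.

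Between the 2 dnMPL fractions, a contrast that was not used to choose the gene, Fabp4 differed by 0.18 ± 0.50 (95% interval -0.94 to 1.30; limma adjusted p = 1.00). The order of the means was control, GFP negative, GFP positive, and the last 2 did not differ beyond their spread. Without GFP positive 2 the difference had the other sign (-0.18). Without control 3, the control with the highest level, Fabp4 was higher than control by 3.24 in GFP negative and 3.42 in GFP positive cells.

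The 4 Fabp4 probe sets did not read alike. A second one, 1417023_a_at, stood at 4.83, 4.61 and 4.83 on controls, at 6.61, 6.62 and 6.00 on GFP negative arrays, and at 6.88, 6.54 and 6.00 on GFP positive arrays. It had the same order of groups as the brightest one, without overlap of controls and dnMPL arrays, a smaller difference (1.66 ± 0.29 and 1.72 ± 0.29) and a Pearson r of 0.961 with it over the 9 arrays. The other probe sets were dim. Probe set 1424155_at lay between 2.41 and 3.45 and 1425809_at between 1.58 and 3.63, below the filter on low values (4.03, the 40th percentile of all probe sets) on every array, with overlapping groups. The highest value of 1425809_at was on control 3. With the mean of the 4 probe sets in place of the brightest, Fabp4 was higher than control by 1.21 in GFP positive and 1.09 in GFP negative cells.

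**Figure D1:**
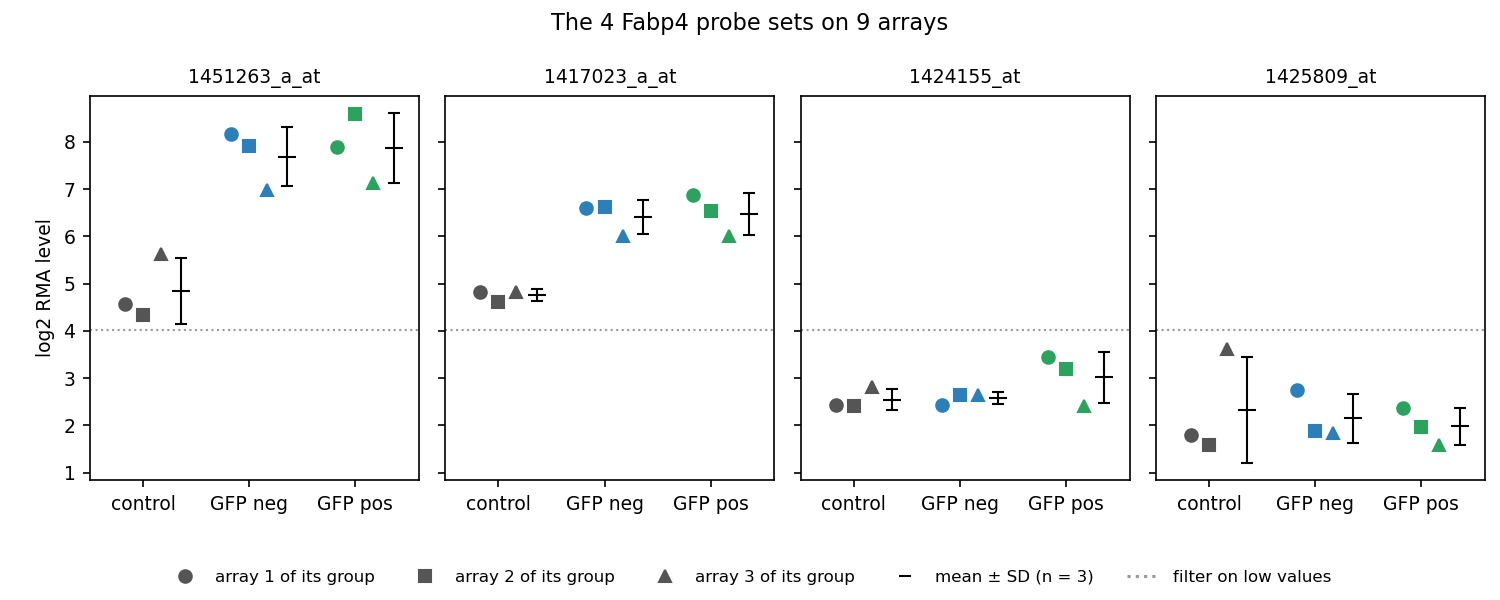
Log2 RMA levels of the 4 Fabp4 probe sets, with 1 symbol per array, the mean and SD of each group of 3 beside it, and a dotted line at the filter on low values (4.03). On 1451263_a_at and 1417023_a_at every dnMPL array lies above every control array, whereas 1424155_at and 1425809_at stay below the line on all arrays.

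Fabp5, the epidermal fatty acid binding protein and a close relative of Fabp4, had no such difference. Its brightest probe set stood at 9.73, 9.98 and 9.84 on controls, at 9.72, 9.57 and 10.16 on GFP negative arrays, and at 9.33, 9.75 and 10.08 on GFP positive arrays. All 3 groups overlapped, with the lowest level on GFP positive 1. Differences from control were -0.13 ± 0.29 in GFP positive cells (95% interval -0.79 to 0.52; limma adjusted p = 0.993) and -0.036 ± 0.29 in GFP negative cells (95% interval -0.69 to 0.62; limma adjusted p = 0.989). The second probe set, 1416022_at, ranged from 7.08 on control 3 to 8.11 on GFP negative 3, also with overlapping groups.

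Lpl, the lipase that frees fatty acids outside the cell, varied widely within groups. It stood at 3.55, 3.84 and 6.18 on controls, at 5.43, 4.21 and 4.73 on GFP negative arrays, and at 6.78, 4.73 and 4.91 on GFP positive arrays. Controls 1 and 2 were below all dnMPL arrays, but control 3 was above all of them except GFP positive 1. The control SD of 1.44 exceeded the difference in GFP positive cells, 0.95 ± 0.76 (95% interval -0.75 to 2.65; limma adjusted p = 0.916), and that in GFP negative cells, 0.27 ± 0.76 (limma adjusted p = 0.973). Leaving out 1 array moved the difference in GFP positive cells between 0.30 (without GFP positive 1) and 1.78 (without control 3), that in GFP negative cells between -0.22 (without control 1) and 1.09 (without control 3), and that between the fractions between 0.030 (without GFP positive 1) and 1.05 (without GFP positive 2). Without both control 3 and GFP positive 2 the differences from control were 2.15 in GFP positive and 1.09 in GFP negative cells. With array weights they were 2.14 and 0.67. None of these passed limma, and the lowest limma adjusted p was 0.29, with array weights in GFP positive cells. On its other probe set, 1431056_a_at, control 3 was at 3.75, between controls 1 and 2 (3.86 and 3.48), and the GFP negative and GFP positive means were 4.12 ± 0.43 and 4.38 ± 0.61 against 3.70 ± 0.19 (SD, n = 3 each), with overlapping groups.

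Cd36, the fatty acid transporter of the cell surface that also marks some erythroid, platelet and monocytic cells, was dim on all 3 probe sets and was not tested. The brightest, 1450883_a_at, stood at 2.85, 2.44 and 3.51 on controls, at 2.97, 3.06 and 2.94 on GFP negative arrays, and at 4.26, 3.62 and 3.24 on GFP positive arrays. The GFP positive arrays were above the GFP negative ones, control 3 lay within the GFP positive range, and GFP positive 1 alone was above 4.03. The other probe sets ranged from 2.26 to 3.04 and from 1.46 to 2.20.

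Pparg, the receptor, had 1 probe set, at 4.92, 4.65 and 5.08 on controls, 5.30, 5.49 and 5.12 on GFP negative arrays, and 4.84, 5.42 and 5.04 on GFP positive arrays. The GFP negative arrays lay above the controls by a narrow margin and the GFP positive arrays overlapped with them. Differences from control were 0.42 ± 0.27 in GFP negative cells (95% interval -0.19 to 1.03; limma adjusted p = 0.92) and 0.22 ± 0.27 in GFP positive cells (95% interval -0.39 to 0.83; limma adjusted p = 0.967). Over the 9 arrays Pparg had a Pearson r of 0.726 with Fabp4, the highest of the tested members, and the r was 0.724 after the group means were subtracted. The r of Fabp4 with the other 4 tested members ranged from -0.357 (Fabp5) to 0.436 (Lpl). After the group means were subtracted it was 0.450 (Lpl), -0.541 (Fabp5), -0.627 (Cpt1a) and -0.807 (Plin2). The value of Plin2 was thus larger in size than that of Pparg and of the opposite sign. These are descriptions over arrays that share their groups.

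Plin2, the coat protein of lipid droplets, stood at 7.18, 7.50 and 5.33 on controls, at 6.71, 6.87 and 6.93 on GFP negative arrays, and at 7.35, 5.80 and 7.28 on GFP positive arrays. Its lowest levels were on control 3 and GFP positive 2, the 2 arrays with the widest Gapdh gaps. The part of RNA quality in these low levels was not tested. Differences from control were 0.14 ± 0.59 in GFP positive and 0.17 ± 0.59 in GFP negative cells (limma adjusted p = 0.996 and 0.979), and without both arrays they were -0.024 and -0.50.

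Cpt1a, the entry step of mitochondrial fatty acid oxidation, had 3 probe sets of similar brightness. The brightest, 1434866_x_at, stood at 7.58, 7.88 and 7.83 on controls, at 7.75, 7.82 and 8.07 on GFP negative arrays, and at 7.45, 7.39 and 8.60 on GFP positive arrays. GFP positive 3 was the highest of all arrays and the other GFP positive arrays were the lowest. Differences from control were 0.052 ± 0.35 in GFP positive and 0.12 ± 0.35 in GFP negative cells (limma adjusted p = 0.996 and 0.975). Probe set 1460409_at had means of 7.36 ± 0.97 (control), 8.14 ± 0.25 (GFP negative) and 7.92 ± 0.67 (GFP positive; SD, n = 3 each), with control 3 at 6.40, and its groups overlapped too. The lowest Cpt1a level among controls was thus on control 3 on that probe set, but on control 1 (7.58 and 7.29) on the other probe sets.

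**Figure D2:**
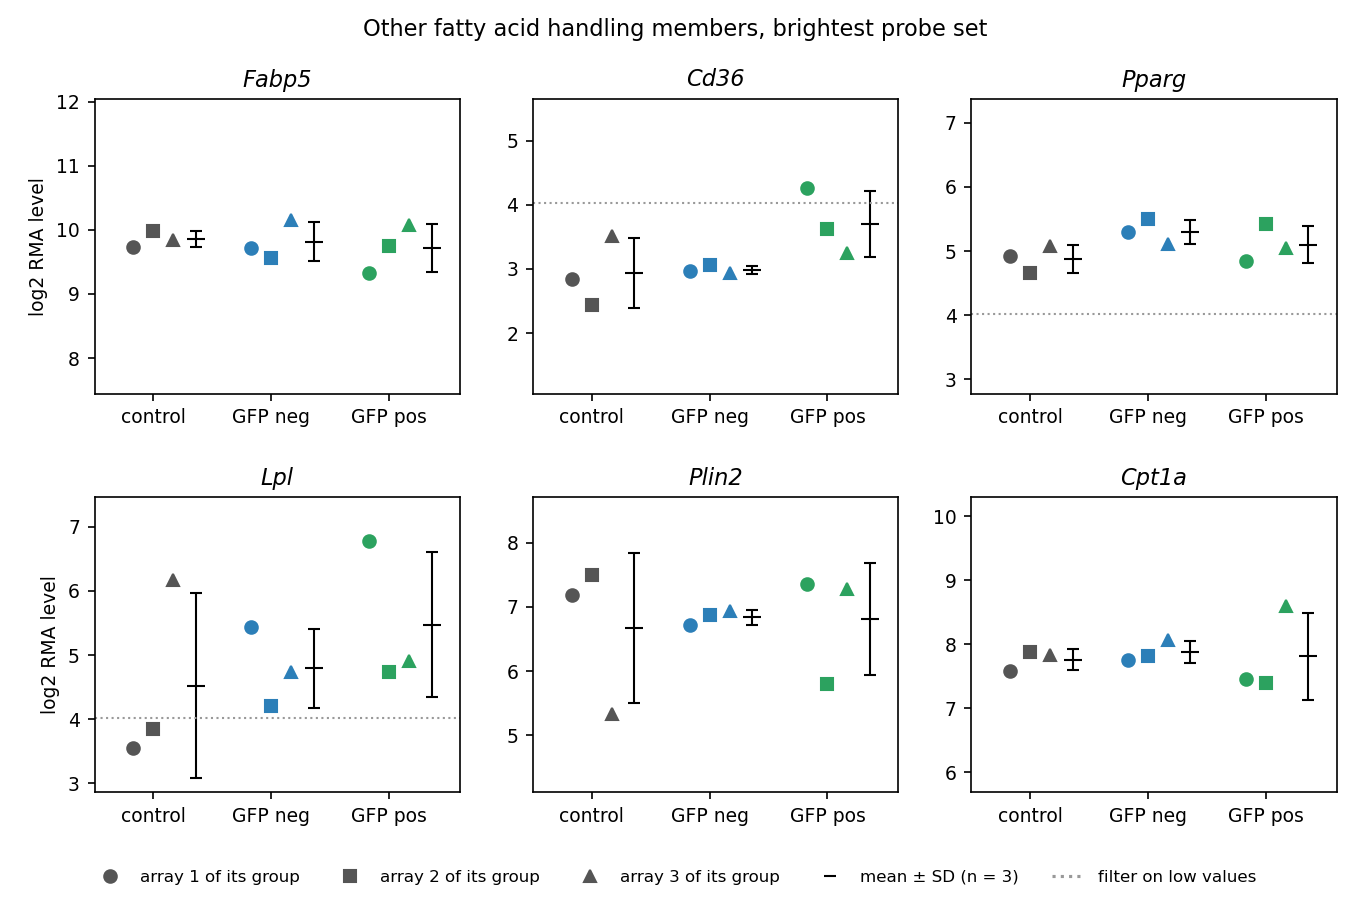
Log2 RMA levels of the brightest probe set of Fabp5, Cd36, Pparg, Lpl, Plin2 and Cpt1a on each array, with group means and SD (n = 3) and a dotted line at the filter on low values where it falls in the panel; all panels span the same number of log2 units. Groups overlap in most panels, Cd36 lies mostly below the line, and control 3 is the highest control for Lpl (6.18) and the lowest for Plin2 (5.33).

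Across the members, 6 of 7 passed the filter on low values, and 0 of these 6 passed limma in any comparison, as was so for 0% of all tested genes. Groups did not overlap in 1 of 6 for GFP positive against control (Fabp4; 8.61% of all tested genes), in 2 of 6 for GFP negative against control (Fabp4 and Pparg; 11.4%) and in 0 of 6 between the fractions (6.4%). The first 2 counts include the gene chosen on those contrasts, and nothing is read from them. In GFP positive against GFP negative cells the tested members differed by between -0.20 (Pparg) and 0.68 (Lpl), and the 95% interval of each included 0.

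**Figure D3:**
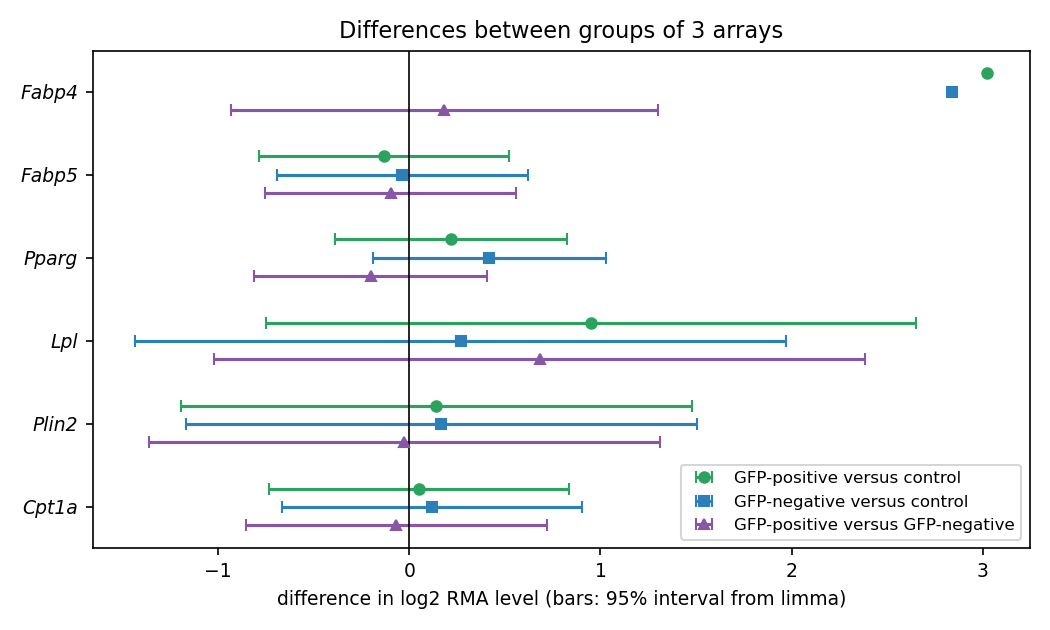
Differences in log2 RMA level between groups for the 6 tested members, with 95% intervals from limma except for Fabp4 against control, where the gene was chosen on that difference and only the point is drawn. Fabp4 lies at 3.02 and 2.84 against control and at 0.18 between the fractions, and all other points lie within 1 of 0.

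The genes whose levels over the 9 arrays were most like those of Fabp4 were Slc4a1, Afap1, Ifitm6, Mtus1, Cemip2 and Ccr2, by Pearson r. Slc4a1, which exchanges chloride and bicarbonate across the membrane of red cells and is 1 of the 10 erythroid genes given below, came first (r = 0.979). It stood at 3.19, 2.20 and 4.94 on controls, at 7.34, 7.05 and 5.94 on GFP negative arrays, and at 7.59, 8.87 and 6.96 on GFP positive arrays. Its order of arrays within each group was that of Fabp4, and the r after the group means were subtracted was 0.957, against 0.603 to 0.772 for the other 5 genes. Over the tested genes of the fatty acid and marker lists that r ranged from -0.972 (Acaa2) to 0.957. Its spread over all tested genes is not given here. The other erythroid genes went both ways, with 0.607 (Alas2), 0.573 (Rhd), 0.483 (Tfrc), 0.394 (Hba-a1), 0.024 (Epor), -0.260 (Car2), -0.491 (Klf1), -0.511 (Ermap) and -0.629 (Car1). In the r over the 9 arrays Afap1, an actin filament associated protein, followed Slc4a1 with 0.956. The interferon-induced transmembrane gene Ifitm6 had 0.948, Mtus1 0.942, the hyaluronidase gene Cemip2 0.925 and the monocyte chemokine receptor Ccr2 0.92. These values describe the same 9 arrays on which Fabp4 was chosen, and any gene that separates controls from dnMPL arrays has a high r with it.

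**Figure D4:**
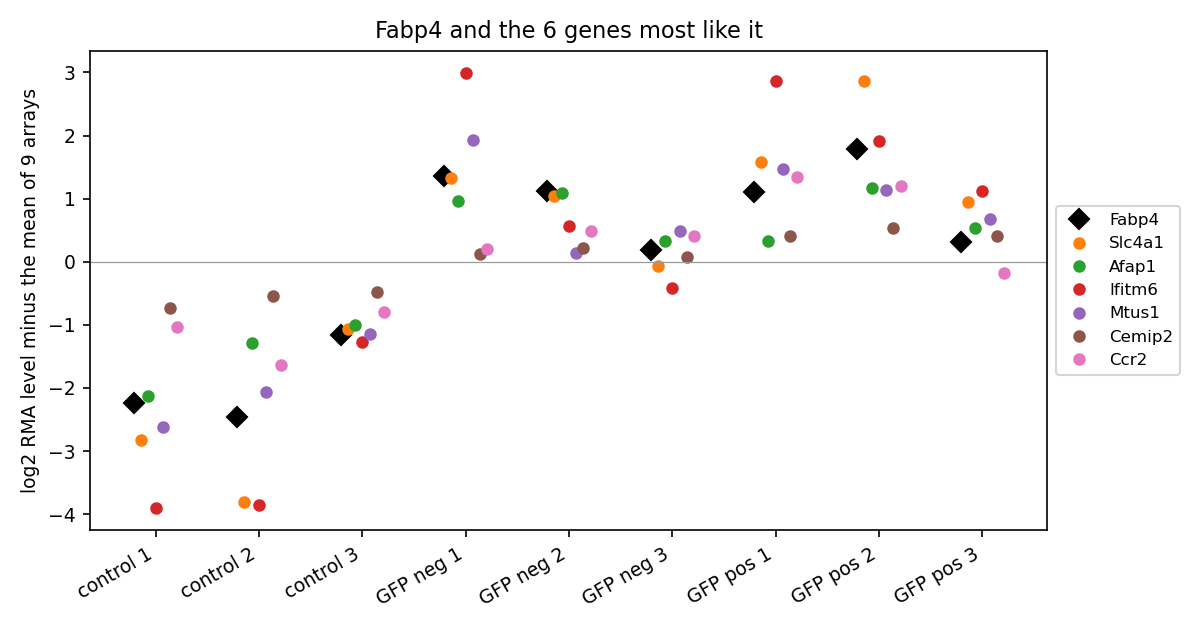
Log2 RMA level of Fabp4 (black diamonds) and of the 6 genes with the highest Pearson r with it, each minus its own mean over the 9 arrays. All 7 genes are below their mean on the 3 controls, and Fabp4 and Slc4a1 are highest on GFP positive 2 (8.59 and 8.87 before the mean was subtracted).

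Markers of the cell types that are known for Fabp4 were measured on the same arrays. Of 9 adipocyte genes, 4 were below the filter, and their mean level per array was 4.33 to 4.50 on controls, 4.36 to 4.56 on GFP negative and 4.33 to 5.02 on GFP positive arrays. Of the 5 tested, 4 were higher and 1 lower in each fraction, with medians of 0.091 (GFP positive) and 0.18 (GFP negative). Groups overlapped with control in all of them. Of all tested genes, 47.2% and 46.5% were higher. Adipoq, the fat cell hormone adiponectin, was below the filter in its mean over all arrays and was not tested. It was dim on controls (2.05, 2.46 and 2.05) and uneven in the dnMPL fractions (4.91, 2.14 and 1.86 in GFP negative, and 4.17, 5.84 and 2.89 in GFP positive). Of 18 endothelial genes 8 were below the filter, and their mean was 4.77 to 4.96 on controls, 4.54 to 4.66 on GFP negative and 4.50 to 5.12 on GFP positive arrays. Of the 10 tested, 5 were higher and 5 lower in GFP positive cells (1 and 2 of them without overlap of the groups) and 4 higher and 6 lower in GFP negative cells (1 and 2 without overlap). Of all tested genes, 8.61% and 11.4% did not overlap in these comparisons. Cdh5, the cadherin that defines endothelium, lay between 3.58 and 4.16 on all arrays, and Kdr between 3.64 and 4.15. Pecam1, the adhesion molecule CD31, stood at 6.68, 6.52 and 6.22 on controls, at 7.53, 8.39 and 7.46 on GFP negative arrays, and at 7.15, 7.80 and 7.59 on GFP positive arrays, above every control. Emcn, which encodes endomucin, stood at 7.24, 6.72 and 4.59 on controls, at 3.81, 4.59 and 4.69 on GFP negative arrays, and at 4.39, 3.79 and 4.24 on GFP positive arrays, lower than 2 of the controls on all of them.

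The 20 monocyte and macrophage genes, 7 of them below the filter, had a mean of 4.23 to 4.75 on controls, 4.46 to 5.61 on GFP negative and 4.76 to 5.66 on GFP positive arrays. Of the 13 tested, 9 were higher and 4 lower in GFP positive cells (median 0.79), 3 and 1 of them without overlap of the groups. In GFP negative cells 8 were higher and 5 lower (median 0.62), 3 and 0 without overlap. Over all tested genes the medians were -0.028 and -0.038, and groups did not overlap in 8.61% and 11.4%. Ccr2, given above, is 1 of the 20 genes. Adgre1, which encodes the macrophage antigen F4/80, was at 5.07 on GFP negative 1 and between 1.38 and 2.56 on the others. The macrophage lysozyme gene Lyz2 was at 9.49, 8.83 and 10.99 on controls, 11.73, 10.25 and 10.17 on GFP negative arrays, and 12.48, 11.42 and 10.65 on GFP positive arrays. Marker lists of the other blood lineages differed in direction, in a gate that takes cells without lineage antigens. The mean of 12 granulocyte genes was 7.63, 6.62 and 9.20 on controls, 10.74, 9.70 and 9.28 on GFP negative arrays, and 11.24, 10.04 and 10.08 on GFP positive arrays, and that of 10 erythroid genes was 5.84, 5.71 and 5.71, then 7.09, 6.89 and 6.85, then 7.04, 7.49 and 7.18. The mean of each list was above every control on every dnMPL array, for the granulocyte genes by a narrow margin (9.28 on GFP negative 3, against 9.20 on control 3). Of the erythroid genes 8 of 10 were higher in GFP positive and 7 of 10 in GFP negative cells, and of the granulocyte genes 12 of 12 in each. Of all tested genes 47.2% and 46.5% were higher. All 3 arrays lay above the controls in 5 and 6 of the 10 erythroid genes and in 6 and 3 of the 12 granulocyte genes (GFP positive and GFP negative). Of the megakaryocyte and platelet genes 4 of 5 tested were lower in each fraction (median -0.37 in each). The T and NK cell genes had medians of -0.089 in GFP positive and 0.29 in GFP negative cells (4 tested). Of the B cell genes 7 of 8 tested were higher in GFP positive and 6 of 8 in GFP negative cells (medians 0.93 and 0.69). The dendritic cell genes had the same counts, with medians of 0.18 and 0.35. The part of these cell types in the level of Fabp4 was not tested.

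The remaining genes of fatty acid handling, taken from 8 lists, lay close to the background of all tested genes. Without the 7 members they held 130 genes, 113 of which had a probe set naming them alone and 85 of which passed the filter. In limma 0 of 85 passed in each comparison. At an unadjusted p under 0.05 there were 1 higher and 1 lower in GFP positive cells (2.35%, against 6.49% of all tested genes), 0 higher and 2 lower in GFP negative cells (2.35%, against 5.57%) and 3 higher and 0 lower in GFP positive against GFP negative cells (3.53%, against 2.55%). Their median difference was -0.021 in GFP positive and -0.041 in GFP negative cells, beside -0.028 and -0.038 over all tested genes.

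**Figure D5:**
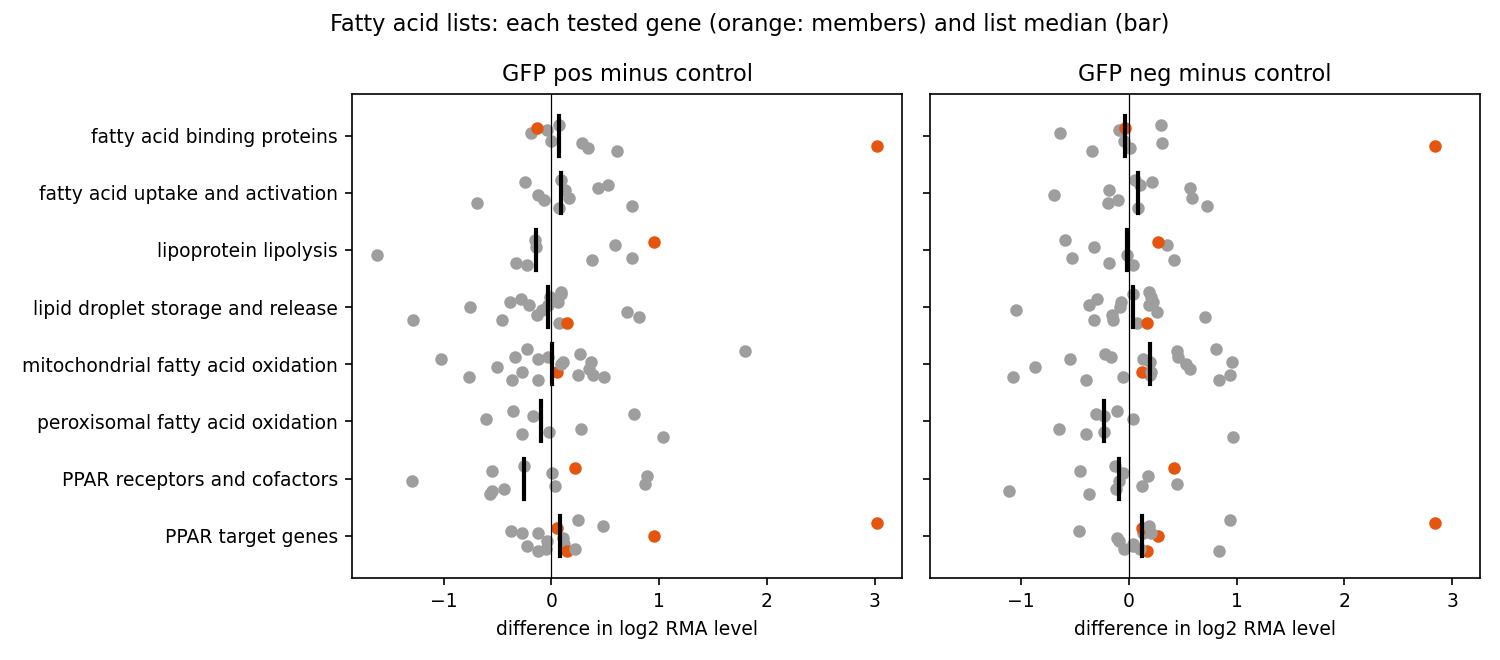
Differences in log2 RMA level from control for every tested gene of 8 fatty acid lists, with members in orange and the list median as a bar (genes of 2 lists are drawn in both). List medians lie between -0.25 and 0.20, and Fabp4 is the point at 3.02 (GFP positive) and 2.84 (GFP negative).

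Of the fatty acid binding proteins, 9 of 17 measured genes passed the filter, 5 higher and 4 lower in GFP positive cells (median 0.072) and 4 higher and 5 lower in GFP negative cells (median -0.036). Apart from Fabp4 those with the smallest p were Acbd3 (0.61 ± 0.52) and Dbi, which binds acyl-CoA (0.34 ± 0.35), in GFP positive cells, and the retinoic acid binding protein Crabp2 (-0.64 ± 0.34) and the testis lipid binding protein Fabp9 (0.31 ± 0.33) in GFP negative cells. In uptake and activation, 7 of 11 tested genes were higher in each fraction, with medians of 0.088 and 0.081. The acyl-CoA synthetase Acsl4 differed by 0.75 ± 0.48 in GFP positive and 0.72 ± 0.48 in GFP negative cells, with control 3 at 4.47 and the other controls at 6.10 and 5.97. Got2 and Ffar2, a receptor for short-chain fatty acids, differed by 0.53 ± 0.34 and -0.69 ± 0.58 in GFP positive cells, and the transport proteins Slc27a4 and Slc27a2 by -0.70 ± 0.35 and 0.59 ± 0.35 in GFP negative cells.

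In lipoprotein lipolysis 4 of 9 tested genes were higher in each fraction (medians -0.14 and -0.020). The lipoprotein receptor Vldlr was at 7.88, 6.29 and 9.85 on GFP positive arrays, against 9.36, 9.49 and 10.02 on controls and 9.50, 9.77 and 9.53 on GFP negative arrays (difference in GFP positive cells -1.61 ± 0.72; limma adjusted p = 0.768). The lipase maturation factors Lmf1 and Lmf2 differed by 0.59 ± 0.37 and 0.37 ± 0.29 in GFP positive cells, and Lmf2, Apoc2 and Sel1l by 0.42 ± 0.29, -0.32 ± 0.30 and -0.59 ± 0.56 in GFP negative cells. In lipid droplet storage and release 7 of 17 tested genes were higher in GFP positive and 9 of 17 in GFP negative cells (medians -0.027 and 0.039). Dgat1, which makes the last bond of triglyceride, differed by 0.82 ± 0.60 and 0.71 ± 0.60, and its level on control 3 (7.45) was above that of 3 dnMPL arrays. Lpin1 and Bscl2 differed by -0.76 ± 0.45 and -1.29 ± 0.78 in GFP positive cells, and Hilpda and Dgat2 by -1.05 ± 0.49 and -0.29 ± 0.27 in GFP negative cells.

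In mitochondrial fatty acid oxidation, 10 of 20 tested genes were higher in GFP positive cells (median 0.0093) and 13 of 20 in GFP negative cells (median 0.20). Decr1, the reductase that lets unsaturated fatty acids enter the oxidation cycle, was at 7.10, 7.53 and 5.58 on controls, at 7.03, 6.80 and 7.71 on GFP negative arrays, and at 8.32, 9.32 and 7.94 on GFP positive arrays. Every GFP positive array was above all 6 others. The difference was 1.79 ± 0.55 against control and 1.34 ± 0.55 against GFP negative cells, and neither passed (limma adjusted p = 0.609 and 1.00). Etfdh, which passes electrons from the oxidation cycle to ubiquinone, differed by -0.76 ± 0.41 in GFP positive and -1.07 ± 0.41 in GFP negative cells (limma adjusted p = 0.818 and 0.862), Hadh by -1.02 ± 0.64 in GFP positive cells, and Acad9 and Crat by 0.96 ± 0.43 and 0.57 ± 0.32 in GFP negative cells.

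In peroxisomal oxidation 3 of 8 tested genes were higher in GFP positive and 2 of 8 in GFP negative cells (medians -0.094 and -0.23). Crot, the carnitine octanoyltransferase, was at 6.72, 7.06 and 7.31 on GFP positive arrays and at 5.79, 6.10 and 5.99 on GFP negative arrays, a difference of 1.07 ± 0.36 (limma adjusted p = 1.00), with controls at 6.72, 6.58 and 5.49. The transporter Abcd2 differed by 1.03 ± 0.52 in GFP positive and 0.97 ± 0.52 in GFP negative cells, and Abcd3, Acaa1a and Hsd17b4 by -0.61 ± 0.49 in GFP positive cells, -0.39 ± 0.27 in GFP negative cells and -0.65 ± 0.52 in GFP negative cells.

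Among the PPAR receptors and their cofactors 5 of 11 tested genes were higher in GFP positive and 4 of 11 in GFP negative cells (medians -0.25 and -0.095). Ncoa2, a coactivator of nuclear receptors, was at 10.31, 10.36 and 10.34 on controls, at 9.43, 9.13 and 9.12 on GFP negative arrays, and at 9.697, 9.696 and 9.97 on GFP positive arrays. The 3 groups did not overlap, with GFP positive cells between the others. The differences were -1.11 ± 0.24 in GFP negative and -0.55 ± 0.24 in GFP positive cells, and neither passed (limma adjusted p = 0.461 and 0.762). Ncoa1, a related coactivator, and Pml differed by 0.89 ± 0.41 and -0.55 ± 0.31 in GFP positive cells, and Pml by -0.45 ± 0.31 in GFP negative cells. Ppard and Rxra, which encode another PPAR and the retinoid X receptor partner, differed by 0.035 ± 0.28 and -0.25 ± 0.40 in GFP positive cells and by 0.13 ± 0.28 and -0.12 ± 0.40 in GFP negative cells.

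Of the PPAR target genes 9 of 16 tested were higher in GFP positive and 12 of 16 in GFP negative cells, where 47.2% and 46.5% of all tested genes had a positive difference, and their medians were 0.078 and 0.12. Fabp4 is counted in this list. Angptl4, an inhibitor of lipoprotein lipase that responds to every PPAR, stood at 5.27, 5.05 and 5.15 on controls, at 5.70, 5.15 and 4.74 on GFP negative arrays, and at 4.39, 5.24 and 5.15 on GFP positive arrays, with overlapping groups. Acot2 differed by -0.38 ± 0.33 and -0.46 ± 0.33 in GFP positive and GFP negative cells, and the thiolase Acaa2 by 0.84 ± 0.49 in GFP negative cells, where its arrays (8.38, 8.55 and 9.19) were just above the controls (8.20, 8.378 and 7.04).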

How the data were processed

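RNA of 9 samples was amplified, biotin-labelled and hybridised to mouse arrays, 1 per sample. The authors deposited log2 levels. Per the submitters' processing notes they came from RMA, with no version named. That method subtracts background, gives all arrays the same distribution and combines the probes of a set. It left 8 of the 16 member probe sets with 2 or more equal values, which can narrow a spread. No scanner file was analysed here, and the probes' genome build is not given in the sources used.

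The annotation named 1 gene for 34945 probe sets, several for 932 and none for 9160, beside 64 control probe sets. Of those with 1 gene, 34741 were matched to RefSeq by Entrez number. For each gene the probe set of highest mean was taken, and 12398 genes above the 40th percentile (4.03) were tested in limma 3.58.1 (R 4.3.3) over all arrays, Benjamini-Hochberg adjusted at a threshold of 0.05. With 3 arrays a group, exact permutation reaches no p under 0.1. The labels do not say whether pools of a group were separate experiments, so p-values measure the spread between these arrays, whose number limits precision.

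The members, the lists and the tests were chosen with earlier results of these data known. Lists are described by counts and medians. Genes named were the members, the 6 genes with the highest Pearson r with Fabp4, the 3 genes of each of the 8 fatty acid lists with the smallest p in each comparison with control, markers that define a cell type, and Kit. Crot between the fractions, Ppard, Rxra, Angptl4, Pecam1 and Emcn were chosen after their values were seen. Of the 10 marker lists, those for B cells and dendritic cells had medians of 0.93 and 0.18 in GFP positive and 0.69 and 0.35 in GFP negative cells, and the gate list -0.12 and -0.064. The fit was run on simulated independent normal values with known differences, which checks the computation and not how well the model suits these arrays. The samples were not treated as paired by replicate number in the main fit. Deviations of same-numbered GFP positive and GFP negative arrays from their group means had correlations of 0.0994, -0.043 and -0.066. With 3 arrays a group these values cannot show whether such arrays share mice. Plots used Python 3.11.15 and matplotlib 3.10.9.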

Additional observations from a re-analysis of the deposited data

How the results depend on the processing

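In each comparison 0 genes passed at 0.05 in all 22 alternatives, which changed the filter, probe set, variance prior, array weights, normalization, threshold or arrays, including the fit with the replicate number as a block (0, 0 and 0 genes). Fabp4 was above control in the 21 alternatives that recompute a difference (1.21 to 3.42 in GFP positive, 1.09 to 3.24 in GFP negative cells), lowest with the mean of its probe sets (1.21 and 1.09), which takes in the dim ones. These alternatives reuse the values for which Fabp4 was chosen, so its sign in them is no test of the difference. Differences near 0 changed sign, and the cause was not tested. With the probe set of largest variance Fabp5 differed by 0.063 (GFP positive against control) and 0.26 (GFP negative against control), and with the mean of its probe sets by 0.11 (GFP negative). With array weights Cpt1a differed by -0.023 (GFP positive), and Plin2 by -0.23 (GFP negative) and 0.34 between fractions, where a further quantile normalization gave 0.026. Without control 3 and GFP-positive 2, Plin2 differed by -0.024, -0.50 and 0.48 (GFP positive, GFP negative, between fractions), and Fabp4 and Cpt1a by -0.18 and 0.14 between fractions. Leaving out 1 array, differences that changed sign ranged as follows. In GFP positive cells they were -0.31 to 0.062 (Fabp5), -0.53 to 0.65 (Plin2) and -0.34 to 0.26 (Cpt1a). In GFP negative cells they were -0.21 to 0.088 (Fabp5), -0.22 to 1.09 (Lpl) and -0.50 to 0.58 (Plin2). Between fractions they were -0.18 to 0.56 (Fabp4), -0.28 to 0.098 (Fabp5), -0.30 to 0.48 (Plin2) and -0.46 to 0.14 (Cpt1a). Of 1197 list medians recomputed, 51 moved by more than the spread between arrays.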

Other observations

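Fabp4 lies among relatives in the RefSeq gene order (assembly GRCm38.p6), between Fabp9 and Fabp12, with Pmp2 and Fabp5 beyond Fabp9 and Impa1 beyond Fabp12. The relatives did not show its difference. Fabp12 lay between 2.15 and 2.69 and Pmp2 between 3.30 and 3.97 on all arrays, both below the filter on low values on every array. Fabp9 stood at 3.66, 3.88 and 4.13 on controls, at 4.36, 3.61 and 4.63 on GFP negative arrays, and at 4.06, 4.50 and 3.94 on GFP positive arrays, with overlapping groups.

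Impa1, the inositol monophosphatase gene next to Fabp12, was chosen after its values were seen. Its brightest probe set stood at 7.56, 7.77 and 7.42 on controls, at 8.18, 8.25 and 8.57 on GFP negative arrays, and at 8.18, 9.00 and 8.41 on GFP positive arrays, so that every dnMPL array was above every control, as in 1.6% of all tested genes. Its other probe sets did not show this. Probe set 1423127_at stood at 6.47, 7.33 and 7.16 on controls, at 7.71, 6.54 and 7.16 on GFP negative arrays, and at 7.18, 6.25 and 7.47 on GFP positive arrays, and 1430495_at ranged from 3.04 to 6.35 on the controls alone.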
